A study of Rattus norvegicus with 6 samples.

Results

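Mitochondria make only a few of their own proteins, and all others are built in the cytosol and must be imported. The translocase of the outer membrane (TOM) receives precursor proteins and passes them through its channel. From there proteins are sorted to the outer membrane by the sorting and assembly machinery (SAM), are held in the intermembrane space by small Tim chaperones or folded there by a disulfide relay, are inserted into the inner membrane by the TIM22 complex, or are drawn into the matrix by the TIM23 complex and its Hsp70 motor, where a peptidase removes the presequence. Muscle fibers rich in mitochondria depend on this traffic.

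The genes of this machinery were followed in gastrocnemius muscle of male Sprague Dawley rats (Crl:SD) infused intravenously for 24 h. Vehicle rats 3, 9 and 11 received vehicle, and olanzapine rats 4, 10 and 12 received olanzapine, an antipsychotic drug, at 1 mg per 100 g of body weight over 0.5 h followed by 0.04 mg per 100 g and hour for 23.5 h. All rats carried jugular and carotid catheters and had food freely available, and their age is not stated in the labels. Each rat gave 1 RNA-Seq library of whole muscle, with values as FPKM, fragments scaled by the length of a gene's exons and by the mapped fragments of the library, and 3 rats per group are the replicates. The members are the genes whose symbol starts with Timm or Tomm, together with Samm50, Pmpca, Pmpcb, Grpel1, Hspa9 and Chchd4, one row per symbol, the row with the highest mean. These were 31 genes of 26406 in the table. Dnajc19, a partner of the motor, is not analysed here.

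None of the import genes passed the test between olanzapine and vehicle rats. The strongest differences were a lower value of Timm8a1, at 0.425 times the vehicle mean, and higher values of Tomm7, Timm8b and Timm13, at 1.64, 1.61 and 1.52 times the vehicle mean. Several core subunits of both membranes had means close to the vehicle level, among them Tomm20 at 1.03, Samm50 at 0.949, Timm50 at 1.02 and Timm22 at 1.04 times the vehicle mean. Others lay further away, such as Tomm40 at 0.756, Timm44 at 0.822 and Timm23 at 1.32 times the vehicle mean. Of 29 genes that could be tested, 0 were higher and 0 lower at an adjusted p under 0.05 from limma, where 0.506% of all 10285 tested genes were called, 0.0486% higher and 0.457% lower. Before adjustment, limma gave a p under 0.05 for 3 members that were higher and 3 that were lower, or 20.7% of the members, against 13.2% of all genes, 3.79% higher and 9.45% lower. The likelihood ratio test of a Poisson model on each group's summed FPKM, which has no term for the spread between rats, gave 5 higher and 3 lower members, against 13.9% of all genes, 6.1% higher and 7.81% lower. This test takes FPKM as counts, so at the same fold change it calls abundant genes more readily. The median vehicle mean was 42.8 FPKM for the members and 6.60 FPKM for all tested genes. The groups did not overlap in 4 members (13.8%), 2 higher and 2 lower, against 19.7% of all genes, 5.12% higher and 14.6% lower. Of the 29 members 16 had a log2 fold change above 0 and 13 below, and 21 and 8 when the rats were rescaled by median-ratio size factors. After that rescaling 6 members were higher and 1 lower without overlap (24.1%), against 19.4% of all genes, 10.6% higher and 8.85% lower. The higher ones were Tomm6, Tomm7, Timm8b, Timm13, Timm50 and Timm17al1 and the lower one Timm8a1, and Tomm40 was no longer among them.

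The muscle of the groups differed in its marker genes of slow fibers. All 10 marker genes of slow fibers were lower in every olanzapine rat than in any vehicle rat, 9 of them at an adjusted p under 0.05 from limma, with a median log2 fold change of -2.56, and their summed level was 18924 to 34210 FPKM after vehicle and 2830 to 7295 FPKM after olanzapine. The 10 markers of fast fibers summed to 54757 to 71045 FPKM after vehicle and to 93364 to 126666 FPKM after olanzapine, and none of them passed the test (limma), where 6 were higher with a p under 0.05 before adjustment and 10 in a Poisson test. Among other cells, 4 hemoglobin and erythroid genes summed to between 1708 and 13723 FPKM and 4 fat markers to between 24.2 and 239 FPKM. The sums were between 327 and 1274 FPKM for 4 fibroblast markers and between 42.4 and 71.5 FPKM for 4 endothelial markers. In each case the sums of the groups overlapped. Log2 fold changes were below 0 for all 4 endothelial markers (median -0.32) and all 4 fibroblast markers (median -0.22). Of the 4 endothelial markers 1 was lower without overlap, against 14.6% of all genes. The part of these cells in the values below was not tested. From the lowest FPKM steps, the depth of a library was 0.441 to 1 times that of vehicle rat 3, with vehicle rat 11 the shallowest. Over all tested genes the log2 fold change had a median of -0.11, so a gene at that value moved with the bulk of the transcriptome. In whole muscle, fewer cells of a type and less RNA per cell cannot be told apart.

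The members spanned a wide range of abundance after vehicle, from 4.17 to 687 FPKM with a median of 42.8 FPKM, while the median of all tested genes was 6.60 FPKM. Vehicle means were above 100 FPKM in 4 genes, between 10 and 100 FPKM in 21 and below 10 FPKM in 4. All 29 were above 0 in every rat, so the filter on low values removed no gene that was seen in any rat. In every rat Tomm6 was the most abundant, Timm8b the next and Tomm7 the third. These 3 genes made up 54.4%, 52.4% and 48.9% of the summed FPKM of the members in vehicle rats 3, 9 and 11 and 61.7%, 55.6% and 64.6% in olanzapine rats 4, 10 and 12. The members together summed to 2734, 2164 and 2070 FPKM for vehicle rats 3, 9 and 11. For olanzapine rats 4, 10 and 12 the sums were 2705, 2512 and 3349 FPKM, so that the groups overlapped in the values as deposited. Without the 3 abundant genes the sum as deposited was 1111 ± 118 FPKM (SD, n = 3) after vehicle and 1112 ± 74.8 FPKM (SD, n = 3) after olanzapine. Both results hold for this scaling only. The median-ratio size factors were 1.08, 1.02 and 1.12 for these vehicle rats and 1.04, 0.926 and 0.880 for these olanzapine rats. Division by them raises the sums of olanzapine rats 10 and 12 and lowers those of the other rats. Overlap of the sums was not read after that rescaling.

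**Figure D1:**
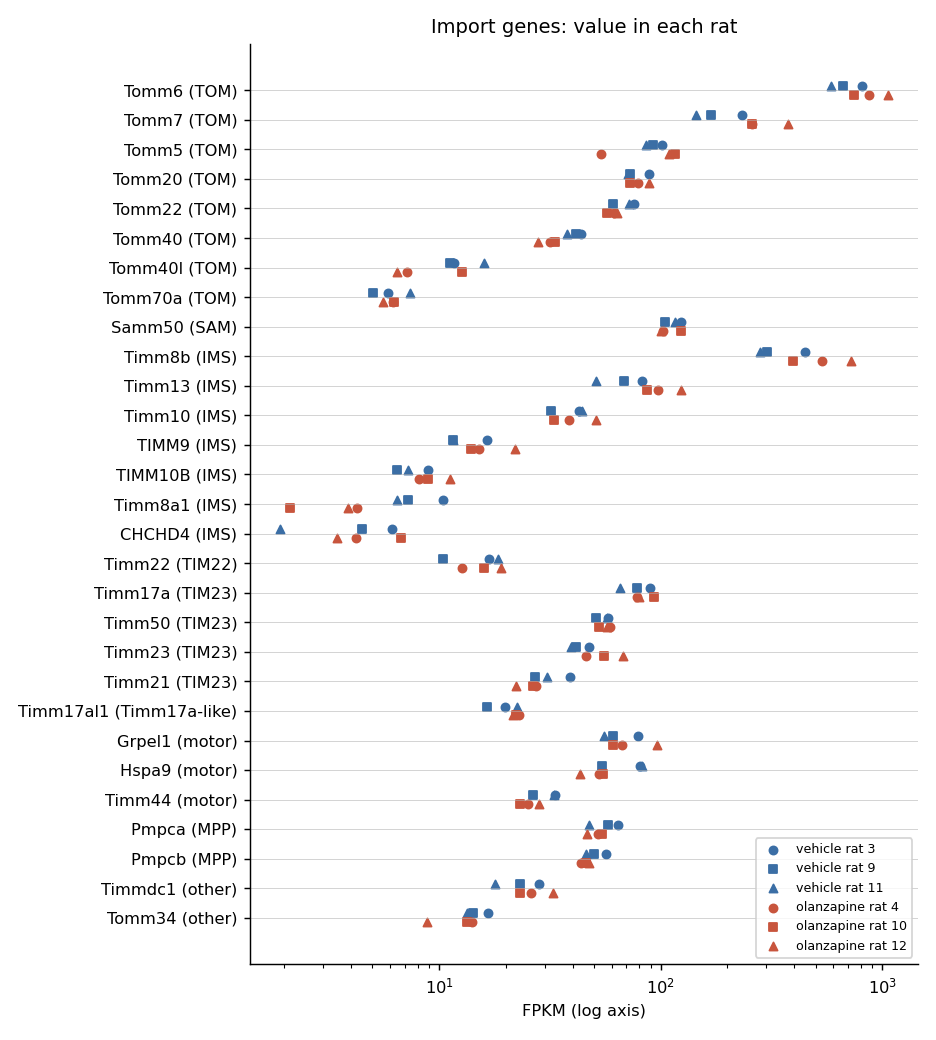
FPKM of the 29 import genes above 0 in each of the 6 rats, on a log axis, ordered by complex and by level (TOM, outer membrane translocase; SAM, sorting and assembly; IMS, intermembrane space; MPP, processing peptidase). Blue marks are vehicle rats and red marks olanzapine rats, and the marks of the groups lie clear of each other only for Tomm7, Timm13, Tomm40 and Timm8a1.

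A pair of members has no level that can be read. Timm17b, an isoform of a TIM23 subunit, stands in the table as 2 rows on chromosome X of Rn5, from 16120797 to 16127832 and from 16222885 to 16229687, and both are listed at 0 in all 6 rats. The values hold only uniquely mapped reads. Among 616 symbols with several rows, 69.6% were at 0 in every rat, compared to 23.5% of the 19010 symbols with 1 row. The planned share of Timm17a in the sum of Timm17a and Timm17b therefore could not be tested. Timm8a2, a small Tim gene on chromosome 15, was also listed at 0 in all rats, and so was a second row of Timm8a1 on chromosome 7. For Chchd4, the oxidoreductase of the disulfide relay, the rule took a locus of 421 bases on chromosome 1 (255649504 to 255649924) with a mean of 4.48 FPKM, and the locus of 9263 bases on chromosome 4 (187427513 to 187436775) had a mean of 4.24 FPKM. The log2 fold change was 0.22 for the first and -0.02 for the second (limma adjusted p = 0.795 and 0.965).

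To show what the 5′ ends of these genes have in common, the windows from 250 bases before to 50 bases after the RefSeq start site (GRCr8) were read for 29 of the 31 members. The letters CCGGAAG, the core bound by GABP (nuclear respiratory factor 2), stood on either strand in 12 of them (41.4%), against 18.7% of 7154 tested genes that matched by symbol and 8.75% of all 33469 windows. The core bound by nuclear respiratory factor 1 (NRF1), GCGCA and GCGC parted by any 1 base, stood in 5 of them (17.2%), against 11% and 4.25%. Neither motif contains the other, and both factors are known to drive nuclear genes of mitochondria. A match is a description of letters and not of a bound site. The windows of Tomm7 and Timm8b, which had the highest fold changes of the members, and of Tomm20, which holds both motifs, are printed here 5′ to 3′ with the motif letters in capitals. That of Tomm7 is chr4:12197253-12197552 on the plus strand, that of Timm8b chr8:59850487-59850786 on the plus strand and that of Tomm20 chr19:71832371-71832670 on the minus strand.
Tomm7: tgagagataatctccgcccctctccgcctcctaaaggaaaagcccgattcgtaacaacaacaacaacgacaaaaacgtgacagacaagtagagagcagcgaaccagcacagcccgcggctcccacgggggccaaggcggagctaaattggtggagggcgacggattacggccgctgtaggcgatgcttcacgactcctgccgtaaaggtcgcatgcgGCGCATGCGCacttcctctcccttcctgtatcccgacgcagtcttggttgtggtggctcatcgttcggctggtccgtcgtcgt
Timm8b: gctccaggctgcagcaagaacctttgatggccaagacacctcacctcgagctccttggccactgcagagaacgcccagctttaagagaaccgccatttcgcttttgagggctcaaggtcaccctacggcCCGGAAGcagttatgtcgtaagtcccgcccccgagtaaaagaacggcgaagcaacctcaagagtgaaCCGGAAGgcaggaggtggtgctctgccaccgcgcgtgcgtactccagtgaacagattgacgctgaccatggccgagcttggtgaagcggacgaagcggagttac
Tomm20: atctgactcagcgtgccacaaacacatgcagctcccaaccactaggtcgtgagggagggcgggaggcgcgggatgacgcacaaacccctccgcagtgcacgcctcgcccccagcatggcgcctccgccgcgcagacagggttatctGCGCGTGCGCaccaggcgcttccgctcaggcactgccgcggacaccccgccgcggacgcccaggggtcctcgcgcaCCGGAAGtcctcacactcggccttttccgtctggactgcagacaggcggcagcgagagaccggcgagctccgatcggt
The NRF1 letters of Tomm7 match on both strands and begin at position -33 from the start site. Those of Tomm20 match only on the strand opposite to the printed one, so the capitals there show their reverse complement. They begin at position -104 and its GABP letters at position -28, and Timm8b holds the GABP letters at positions -121 and -54. The window of Timm8a1 holds neither, and so do those of Timm13 and Tomm6, which were on the other side of 0 in log2 fold change. Timm10 and Tomm22, with log2 fold changes of 0.03 and -0.19, hold 3 matches of the GABP letters each. Of the 29 windows 15 hold at least 1 of the motifs. Whether the motifs go with the direction of a gene was not tested.

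In the outer membrane, the small subunit Tomm7 was higher and the channel Tomm40 lower in every olanzapine rat than in any vehicle rat in the values as deposited, and neither passed the test. Tomm7, a small subunit that helps the TOM complex assemble, lies on chromosome 4 of Rn5 from 7844006 to 7850847. It was at 233, 169 and 144 FPKM for vehicle rats 3, 9 and 11 and at 259, 257 and 377 FPKM for olanzapine rats 4, 10 and 12. Every olanzapine rat was above every vehicle rat, with olanzapine rat 12 the highest and the gap between vehicle rat 3 and olanzapine rat 10 small. The difference was 0.71 on the log2 scale (standard error 0.24, 95% interval 0.16 to 1.26, limma adjusted p = 0.277). Tomm6, another small subunit, was at 808, 663 and 590 FPKM after vehicle and at 875, 744 and 1062 FPKM after olanzapine. Here vehicle rat 3 exceeded olanzapine rat 10, so that the groups overlapped (log2 fold change 0.38, standard error 0.21, adjusted p = 0.470). After rescaling by median-ratio size factors they did not, with vehicle rat 3 at 751 and olanzapine rat 10 at 804. Tomm5, the third small subunit, had a log2 fold change of -0.08 and both the lowest and the highest of its 6 values in olanzapine rats, at 53.8 FPKM in rat 4 and 116 FPKM in rat 10.

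Tomm40 forms the channel through which nearly all precursors pass. It was at 43.9, 41.6 and 37.8 FPKM for vehicle rats 3, 9 and 11 and at 31.6, 33.4 and 28.1 FPKM for olanzapine rats 4, 10 and 12. Every olanzapine rat was below every vehicle rat, and the difference missed the test (log2 fold change -0.39, standard error 0.16, 95% interval -0.76 to -0.03, limma adjusted p = 0.351). Relative to the median of all tested genes the difference was -0.28 on the log2 scale. With median-ratio size factors it was -0.22 and the groups of Tomm40 overlapped, since olanzapine rat 10 (36.1 after rescaling) lay above vehicle rat 11 (33.9). Its paralog Tomm40l was at 11.6, 11.2 and 16.0 FPKM after vehicle and at 7.19, 12.7 and 6.46 FPKM after olanzapine, with olanzapine rat 10 inside the range of the vehicle rats (log2 fold change -0.55, adjusted p = 0.408). Tomm40l made up 24.0% ± 4.96 (SD, n = 3) of the FPKM of both channel genes after vehicle and 21.6% ± 5.13 (SD, n = 3) after olanzapine, a difference within the spread between rats (exact permutation test, two-sided, p = 0.5, with 0.1 the smallest p for 3 rats against 3).

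Among the receptors of the TOM complex none had a limma p under 0.05 before adjustment. Tomm20, which recognizes presequences, was at 77.6 ± 9.79 FPKM (SD, n = 3) after vehicle and 80.2 ± 7.78 FPKM (SD, n = 3) after olanzapine, and its 95% interval on the log2 scale ran from -0.34 to 0.44. Tomm22, the central receptor, had a log2 fold change of -0.19 (95% interval -0.56 to 0.18, limma adjusted p = 0.610). Tomm70a, the receptor of carrier precursors, had one of 0.00 with an interval from -0.42 to 0.41. Tomm70a was low in this muscle, at 5.02 to 7.37 FPKM over the 6 rats. Samm50, the barrel-inserting core of the SAM complex, was at 123, 105 and 116 FPKM after vehicle and at 103, 123 and 100.0 FPKM after olanzapine. The groups overlapped, and the sign of the difference turned with median-ratio size factors (log2 fold change -0.08, standard error 0.17, 95% interval -0.46 to 0.30, limma adjusted p = 0.849).

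**Figure D2:**
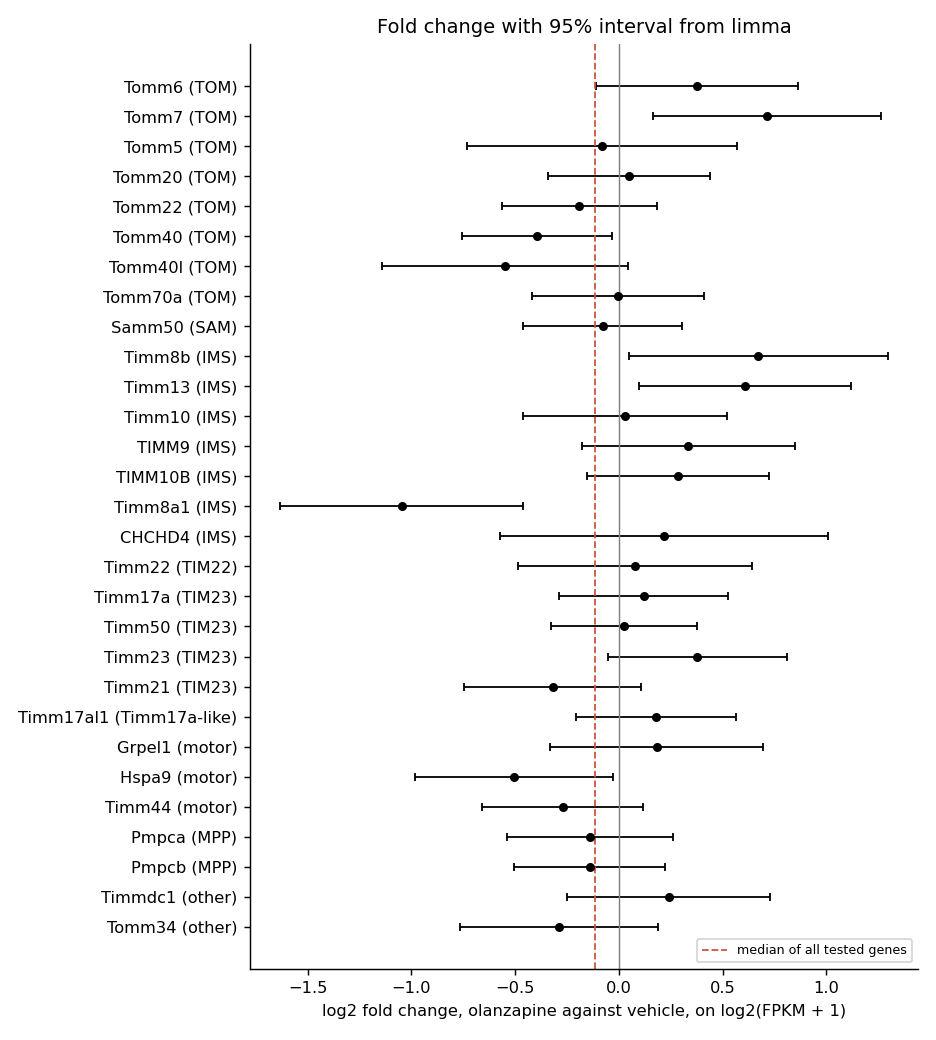
Log2 fold change of olanzapine against vehicle rats for each of the 29 genes on log2(FPKM + 1), with 95% intervals from limma, in the order of the plot of levels. The dashed line is the median of all tested genes at -0.11. The intervals of 6 genes do not reach 0, those of Tomm7, Timm8b and Timm13 above it and those of Timm8a1, Tomm40 and Hspa9 below it.

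The small Tim chaperones of the intermembrane space, which carry hydrophobic precursors across the aqueous space, held the most negative difference of the members, that of Timm8a1, and 2 of the 3 most positive, those of Timm8b and Timm13. Timm8 and Timm13 proteins form a hexamer, as do Timm9 and Timm10. Timm8a1, on chromosome X of Rn5 from 105241979 to 105249390, was at 10.4, 7.26 and 6.48 FPKM for vehicle rats 3, 9 and 11 and at 4.27, 2.13 and 3.88 FPKM for olanzapine rats 4, 10 and 12. All olanzapine rats were below all vehicle rats. Its log2 fold change of -1.05 (standard error 0.26, 95% interval -1.63 to -0.46) was the most negative of the members, and missed the test over all genes (limma adjusted p = 0.165). The mutated human ortholog of Timm8a1 causes a syndrome of deafness and dystonia.

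Timm8b, the more abundant paralog on chromosome 8 from 53635063 to 53636450, had the opposite direction. It was at 446, 301 and 280 FPKM for vehicle rats 3, 9 and 11 and at 534, 395 and 724 FPKM for olanzapine rats 4, 10 and 12. Vehicle rat 3 was above olanzapine rat 10, so the groups overlapped (log2 fold change 0.67, standard error 0.27, limma adjusted p = 0.352). After rescaling by median-ratio size factors they did not, with vehicle rat 3 at 415 and olanzapine rat 10 at 427. Timm8a1 thus made up 2.29%, 2.35% and 2.26% of the FPKM of both Timm8 genes in vehicle rats 3, 9 and 11 and 0.794%, 0.535% and 0.533% in olanzapine rats 4, 10 and 12. The share was 3.71 times larger after vehicle, with no overlap and with a spread far below the difference (exact permutation test, two-sided, p = 0.1, the smallest that 3 rats against 3 allow). A share within a rat does not depend on a factor that scales the whole library. Effects that differ between the loci do not cancel in it, and their part was not tested. The locus of Timm8a1 spans 7412 bases and that of Timm8b 1388 bases.

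**Figure D3:**
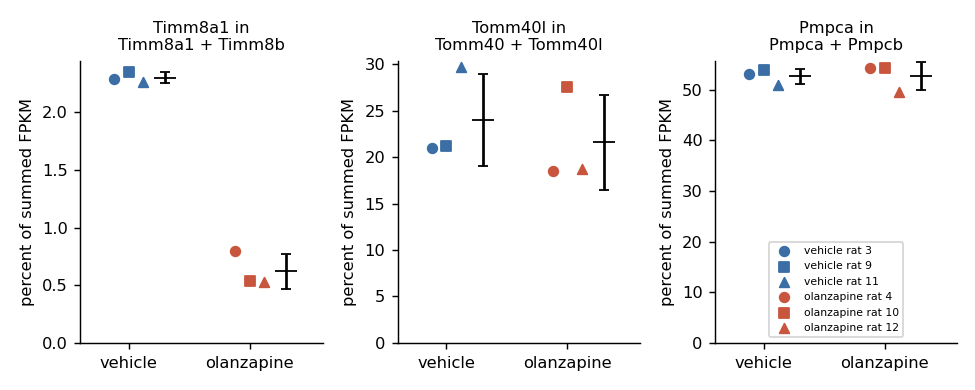
Share of the first gene in the summed FPKM of each paralog or subunit pair, in percent, for each rat, with the mean and SD of each group (n = 3). The vehicle rats sit at 2.26% to 2.35% for Timm8a1 and the olanzapine rats at 0.533% to 0.794%, while the groups overlap for Tomm40l and Pmpca.

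Timm13, the partner of the Timm8 proteins, was at 82.3, 68.5 and 51.0 FPKM for vehicle rats 3, 9 and 11 and at 97.6, 86.4 and 123 FPKM for olanzapine rats 4, 10 and 12. Every olanzapine rat was above every vehicle rat (log2 fold change 0.61, standard error 0.22, 95% interval 0.10 to 1.12, limma adjusted p = 0.314). Timm9 and Timm10, which form the other hexamer, had log2 fold changes of 0.33 and 0.03 (adjusted p = 0.526 and 0.956), and Timm10 was at 39.6 ± 6.75 FPKM (SD, n = 3) after vehicle and 40.8 ± 9.29 FPKM (SD, n = 3) after olanzapine. Timm10b, which docks the hexamer onto TIM22, was read from a locus on chromosome 1 with a log2 fold change of 0.29 (adjusted p = 0.524). A second row of that symbol, a locus of 668 bases on chromosome 20 that the rule leaves out, was at 0.996, 3.44 and 0.727 FPKM after vehicle and at 5.13, 4.10 and 3.55 FPKM after olanzapine without overlap (log2 fold change 1.07, adjusted p = 0.256).

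Tomm6, Tomm7, Timm8b and Timm13 had the same order at the ends, with vehicle rat 11 the lowest and olanzapine rat 12 the highest of the 6 rats. This order was found in 7 of the 29 members and in 6.90% of all tested genes. Without these 2 rats, a fit chosen after seeing the data, the log2 fold change was 0.38 for Tomm7 (0.71 with all rats), 0.32 for Timm8b (0.67), 0.29 for Timm13 (0.61) and 0.14 for Tomm6 (0.38), while that of Timm8a1 was -1.26 (-1.05). Olanzapine rat 12 was the highest rat in 37.9% of the members and in 15.7% of all tested genes, and vehicle rat 11 the lowest in 34.5% and 16.6%. Vehicle rat 11 had the shallowest library, and the part of depth in these values was not tested. Several of these genes are also compact. Of the 7 tested members whose locus is under 2000 bases 6 lay above 0 in log2 fold change (median 0.29), and the 22 others had a median of -0.04. Over all tested genes the medians were 0.07 for 1219 loci under 2000 bases and -0.13 for 9066 longer ones. Spearman's rho between locus length and log2 fold change was -0.28 over the 29 members and -0.26 over all tested genes, where genes share the same 6 libraries and are not independent. Locus length was looked at after the values had been seen, and its part in the values was not tested.

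**Figure D4:**
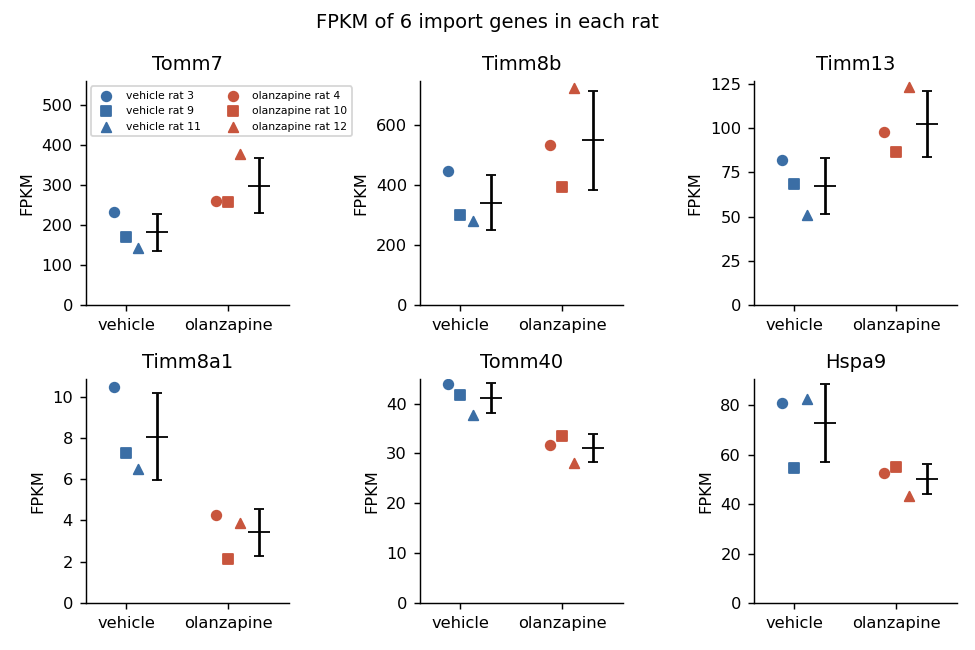
FPKM in each rat of the 6 import genes with a limma p under 0.05 before adjustment, on linear axes that start at 0, with the mean and SD of each group (n = 3). Olanzapine rats lie above vehicle rats without overlap for Tomm7 and Timm13 and below them without overlap for Timm8a1 and Tomm40. They overlap with vehicle rats for Timm8b and Hspa9. After rescaling by median-ratio size factors the groups overlap for Tomm40 and no longer overlap for Timm8b.

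At the inner membrane none of the translocase genes among the members had a limma p under 0.05 even before adjustment. Timm22, the pore that inserts metabolite carriers, was at 16.9, 10.4 and 18.5 FPKM for vehicle rats 3, 9 and 11 and at 12.7, 16.0 and 19.1 FPKM for olanzapine rats 4, 10 and 12. The groups overlapped, and the sign turned without vehicle rat 9 or olanzapine rat 12 (log2 fold change 0.08, standard error 0.25, limma adjusted p = 0.902). Of the TIM23 complex, Timm17a, a core subunit, was the most abundant member, at 89.2, 78.2 and 65.5 FPKM after vehicle and at 78.5, 93.5 and 79.9 FPKM after olanzapine (log2 fold change 0.12, standard error 0.18, adjusted p = 0.781). Timm17al1, a locus of 1080 bases with a symbol that marks it as similar to Timm17a, was at 16.5 to 22.8 FPKM in the 6 rats (log2 fold change 0.18, adjusted p = 0.645), and reads shared by both loci would not be in either value. Timm23, the channel, had a log2 fold change of 0.38 (95% interval -0.05 to 0.81, adjusted p = 0.424), Timm50, the presequence receptor, one of 0.02 (95% interval -0.33 to 0.38, adjusted p = 0.952), and Timm21, which links TIM23 to the TOM complex, one of -0.32 (adjusted p = 0.479). After rescaling by median-ratio size factors Timm50 was at 50.0 to 53.8 in vehicle rats and at 56.5 to 64.8 in olanzapine rats.

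The motor that pulls proteins into the matrix is built around Hspa9, mitochondrial Hsp70 or mortalin. Its gene spans 27441854 to 27459272 on chromosome 18 of Rn5. Hspa9 was at 81.0, 54.5 and 82.7 FPKM for vehicle rats 3, 9 and 11 and at 52.4, 55.0 and 43.4 FPKM for olanzapine rats 4, 10 and 12. Vehicle rat 9 fell among the olanzapine rats and the other vehicle rats were above all of them (log2 fold change -0.51, standard error 0.21, 95% interval -0.98 to -0.03, limma adjusted p = 0.356). Grpel1, the nucleotide exchange factor of Hspa9, had the highest mean over the 6 rats of the 3 motor genes among the members, at 78.9, 60.7 and 55.2 FPKM after vehicle and at 66.7, 60.9 and 95.8 FPKM after olanzapine (log2 fold change 0.18, standard error 0.22, adjusted p = 0.722). Timm44, which tethers Hspa9 to the channel, had a log2 fold change of -0.27 (adjusted p = 0.505).

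Pmpca and Pmpcb are the subunits of the peptidase that cuts off presequences. Pmpca was at 64.2, 58.0 and 47.5 FPKM for vehicle rats 3, 9 and 11 and at 52.0, 54.5 and 46.5 FPKM for olanzapine rats 4, 10 and 12, with overlapping groups and a sign that turned with median-ratio size factors (log2 fold change -0.14, standard error 0.18, limma adjusted p = 0.728). Pmpcb had the same log2 fold change of -0.14 (adjusted p = 0.695). Pmpca made up 52.6% ± 1.53 (SD, n = 3) of the FPKM of the pair after vehicle and 52.6% ± 2.72 (SD, n = 3) after olanzapine (exact permutation test, two-sided, p = 1). The names of another pair of members do not reflect a role in translocation across the membranes. Timmdc1, an assembly factor of complex I, was at 28.3, 23.1 and 17.9 FPKM after vehicle and at 26.1, 23.2 and 32.7 FPKM after olanzapine (log2 fold change 0.24, standard error 0.21, adjusted p = 0.624). Tomm34, a cytosolic cochaperone, had a log2 fold change of -0.29 (adjusted p = 0.544).

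**Figure D5:**
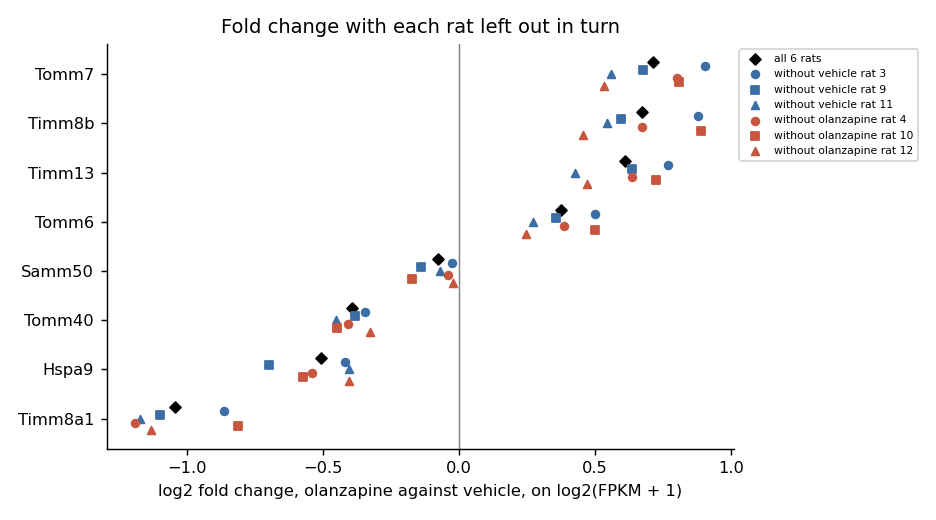
Log2 fold change of 8 import genes with all rats (black) and with each rat left out in turn (colors and shapes as for the rats). Timm8b moves between 0.45 without olanzapine rat 12 and 0.89 without olanzapine rat 10, Timm8a1 stays between -1.19 and -0.81, and none of the fits brings any of the 8 past an adjusted p of 0.05.

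Import depends on further proteins that the rule did not take. Of 27 such genes listed by name 25 were tested, and 0 were higher and 0 lower at an adjusted p under 0.05 from limma. Before adjustment 5 (20%), each of them lower, had a limma p under 0.05, against 13.2% of all genes, 3.79% higher and 9.45% lower. The Poisson test gave 2 higher and 7 lower, against 6.1% and 7.81% of all genes. The groups did not overlap in 6 of the 25 (24%), each of them lower, against 19.7% of all genes, 5.12% higher and 14.6% lower. These were Agk, Aifm1, Hspd1, Mtx1, Lonp1 and Dnajc11. The median log2 fold change of the 25 genes was -0.24, compared to 0.03 for the members and -0.11 for all tested genes. Agk, an acylglycerol kinase that is also a subunit of TIM22, was at 5.33, 3.98 and 5.41 FPKM for vehicle rats 3, 9 and 11 and at 2.68, 2.58 and 0.891 FPKM for olanzapine rats 4, 10 and 12 without overlap (log2 fold change -1.01, standard error 0.28, adjusted p = 0.210). Aifm1, which binds Chchd4, was at 21.0, 21.2 and 24.9 FPKM after vehicle and at 16.3, 15.5 and 11.5 FPKM after olanzapine without overlap (log2 fold change -0.61, adjusted p = 0.237). Hspd1, the matrix chaperonin Hsp60 that folds imported proteins, was at 15.6 ± 2.51 FPKM (SD, n = 3) after vehicle and 9.50 ± 2.40 FPKM (SD, n = 3) after olanzapine (log2 fold change -0.67, adjusted p = 0.260). Mtx1, a partner of Samm50, had a log2 fold change of -0.45 (adjusted p = 0.356) and Pitrm1, which degrades cleaved presequences, one of -0.31 (adjusted p = 0.529). Pam16, which regulates the motor, was on the other side of 0 at 0.51 (adjusted p = 0.399). Romo1 and Yme1l1 stand in the table as 2 rows each, all listed at 0 in all rats.

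For comparison, lists of genes whose products are imported were read from the same fit. Of 45 tested nuclear genes of complex I with symbols starting with Nduf, 0 passed with limma. Before adjustment 3 higher and 2 lower ones had a p under 0.05, and the Poisson test gave 20 higher and 3 lower, with a median log2 fold change of 0.17. Of 74 tested genes of mitochondrial ribosomal proteins 0 passed with limma, 1 higher and 1 lower had a p under 0.05 before adjustment, and the Poisson test gave 9 higher and 1 lower, with a median of 0.09. The import genes ran from -1.05 to 0.71, with 19 of 29 above the median of all tested genes. Of all tested genes 3.79% were higher and 9.45% lower at a limma p under 0.05 before adjustment. In the Poisson test 6.1% of all tested genes were higher and 7.81% lower. These shares are not matched to the lists by abundance, on which the calls of that test depend. Differences between the lists were not tested.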

How the data were processed

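Gastrocnemius RNA of 6 rats was sequenced for 50 cycles from single ends. The authors aligned reads to Rn5 with TopHat2 2.0.9 and computed FPKM from uniquely mapped reads with Cufflinks 2.2.1, and these deposited FPKM values are the start of all computations here. Columns of the authors' means, errors, fold changes and p marks were not used. The reads per rat are unknown, so no counting interval is given. The genes averaging 1 FPKM or more over the rats were compared with limma 3.58.1 in R 4.3.3 on log2(FPKM + 1), with a variance trend and Benjamini-Hochberg adjustment over all of them. Fold changes on this scale understate those of low genes. The fit was also run on simulated data, with noise drawn for each gene on its own. That run held no effect shared by the genes of a rat, so it cannot show how the fit handles one. Shares were compared with exact permutation tests in scipy 1.17.1. Each rat is an animal of its own, and groups were taken from the sample titles. Members, lists and tests were chosen with earlier results of these data known. Named in full were members with a p under 0.05 before adjustment or without overlap and the most abundant member of each complex, and of the other import genes the one with the smallest p of each role. Alternatives were other pseudocounts, filters and scalings, no variance trend, a Poisson test on group sums, and each rat left out. Promoter windows and names came from RefSeq (GRCr8), matched by symbol, and no coordinates were carried between builds.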

Additional observations from a re-analysis of the deposited data

How the results depend on the processing

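No import gene passed an adjusted p of 0.05 in any of the 16 limma fits, and the smallest adjusted p was 0.0899, for Timm8a1 when genes at 0 in 1 or more rats were dropped. The Poisson test gave 5 import genes higher and 3 lower, and 1430 genes over all. The count over all genes, 52 in the fit reported, was 27 without a filter on low genes, 102 when genes at 0 in 1 or more rats were dropped, 31 with median-ratio size factors, 14 to 62 with 1 rat left out, and 13 without both vehicle rat 11 and olanzapine rat 12, a fit chosen after seeing the data. With median-ratio size factors the median log2 fold change of the import genes was 0.20 (0.03 for all tested genes), 21 import genes were above 0 against 16 in the values as deposited, and the log2 fold change of Pmpca (0.033) and Samm50 (0.095) turned above 0, while those of Tomm40 (-0.22) and Hspa9 (-0.33) shrank by over 1.5 times. The median lay between -0.09 and 0.09 with 1 rat left out. Some values near 0 also changed sign: with 1 rat left out the log2 fold change of Timm22 ran from -0.16 to 0.23 and was -0.05 without olanzapine rat 12, and that of Grpel1 ran from -0.011 to 0.33, the lowest without olanzapine rat 12. Without both rats named above Grpel1 was at -0.12 and Timmdc1 at -0.054, and Tomm7, Timm8b, Timm13, Tomm6 and Hspa9 (-0.30) also shrank by over 1.5 times. With 1 rat left out the difference in the share of Timm8a1 kept its sign, that of Tomm40l ran from -5.34 to 0.485 percentage points and that of Pmpca from -0.831 to 1.61 (0.0342 with all rats), with the sign turned without vehicle rat 11 for both and, for Pmpca, also at -0.762 without olanzapine rat 4 and -0.742 without olanzapine rat 10. Timm8a1, at a mean of 5.74 FPKM, was not in the fit with a filter at 10 FPKM. No paired analysis was possible because the groups share no rat number and the labels name no pairs. The depth in reads is unknown and limits the lowest genes most.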
